A study of Mus musculus with 8 samples.

Results

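Interferon response genes were followed through the accessible chromatin of medullary thymic epithelial cells (mTECs) by asking which of them had a consensus ATAC-seq region at the transcription start, how wide these regions were, and which regulatory letters they held. The set comprised 31 genes chosen by name, namely 9 transcription factors, 2 RNA sensors, 13 effectors, 3 guanylate-binding proteins and 4 further genes. Regions that overlapped a gene body or its 5 kb flanks were given to the member with the nearest start, which yielded 79 of 57124 consensus regions. ATAC-seq uses the Tn5 transposase to cut and tag open chromatin. The 8 samples came from thymi of young wild-type BL6N6 mice and were CD45-negative, EpCAM-positive and CDR1-negative mTECs sorted by flow cytometry into 4 groups of 2 biological replicates. The groups were Tspan8pos MHCIIhi and Tspan8pos MHCIIlo together with their Tspan8neg MHCIIhi and Tspan8neg MHCIIlo counterparts, where Tspan8 is a tissue-restricted antigen on a minority of mTECs and high MHCII marks mature cells. The names of the 8 count columns matched no sample label, so they were not used, differences between the groups are not analysed here, and the values below describe the merged regions of the whole sample set.

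Interferons bind receptors whose JAK kinases activate STAT proteins. Type I and type III interferons act through a complex with STAT2 and IRF9 that binds the interferon-stimulated response element (ISRE), while interferon gamma acts through gamma-activated sites (GAS). Interferon regulatory factors (IRFs) bind ISRE-like letters as well, and the target genes encode sensors and antiviral effectors. The thymic medulla is known for making interferon without infection.

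Stretches directly upstream of effector and guanylate-binding genes are shown because they carry the ISRE letters that set these starts apart in the counts below. Capitals mark matches to GAAANNGAA on either strand, and overlapping matches are merged into one run. All stretches are written 5′ to 3′ on the strand of the gene, from the GRCm38 assembly that underlies mm10. The first 7 lie entirely within a consensus region. They are Usp18 (chr6:121245786-121245905, plus strand), Ifit1 (chr19:34640751-34640870, plus strand), Oas3 (chr5:120777662-120777781, minus strand), Rsad2 (chr12:26456453-26456572, minus strand), Bst2 (chr8:71537457-71537616, minus strand), Gbp3 (chr3:142559932-142560025, plus strand) and Gbp5 (chr3:142496740-142496899, plus strand).
Usp18: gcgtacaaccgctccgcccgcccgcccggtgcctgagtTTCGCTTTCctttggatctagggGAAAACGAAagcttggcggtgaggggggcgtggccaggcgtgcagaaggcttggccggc
Ifit1: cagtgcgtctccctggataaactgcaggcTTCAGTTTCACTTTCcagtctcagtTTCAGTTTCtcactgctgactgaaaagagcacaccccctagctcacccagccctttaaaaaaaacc
Oas3: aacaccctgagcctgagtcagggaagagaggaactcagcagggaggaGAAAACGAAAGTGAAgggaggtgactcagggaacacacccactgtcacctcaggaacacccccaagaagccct
Rsad2: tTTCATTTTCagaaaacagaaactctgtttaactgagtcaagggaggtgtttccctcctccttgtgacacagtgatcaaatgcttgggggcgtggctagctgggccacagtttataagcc
Bst2: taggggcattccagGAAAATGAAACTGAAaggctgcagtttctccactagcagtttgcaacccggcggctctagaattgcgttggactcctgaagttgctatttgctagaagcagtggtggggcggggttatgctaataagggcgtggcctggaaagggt
Gbp3: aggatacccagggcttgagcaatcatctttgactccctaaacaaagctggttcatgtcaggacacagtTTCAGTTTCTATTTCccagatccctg
Gbp5: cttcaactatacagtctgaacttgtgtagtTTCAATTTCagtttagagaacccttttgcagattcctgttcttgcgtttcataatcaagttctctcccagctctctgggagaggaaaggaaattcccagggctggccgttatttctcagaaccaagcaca
In Oas3, Bst2 and Gbp3 the matches shown overlap each other, and in Ifit1 the match at -87 overlaps that at -81 while the one at -62 stands apart. The matches of Usp18, Ifit1 and Oas3 lie from -87 to -55 relative to the start, and that of Rsad2 lies at -115.

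The same letters stand upstream of 3 effectors where they fall outside the consensus regions. They are Isg15 (chr4:156200819-156200938, minus strand), of which 43 of 120 bases lie in a region, Ifit3 (chr19:34583371-34583530, plus strand) and Oas2 (chr5:120749854-120749973, minus strand), both with 0 bases in a region.
Isg15: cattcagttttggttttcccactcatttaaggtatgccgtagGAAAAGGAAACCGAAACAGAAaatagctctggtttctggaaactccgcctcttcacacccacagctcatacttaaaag
Ifit3: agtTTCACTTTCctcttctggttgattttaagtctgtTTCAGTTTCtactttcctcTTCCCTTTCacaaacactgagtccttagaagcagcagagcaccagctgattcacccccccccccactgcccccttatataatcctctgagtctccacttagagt
Oas2: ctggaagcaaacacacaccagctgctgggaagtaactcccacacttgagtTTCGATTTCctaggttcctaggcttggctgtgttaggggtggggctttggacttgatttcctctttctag
For Isg15, which encodes a ubiquitin-like modifier, 3 overlapping matches at -62, -68 and -74 formed an array of 21 bases. The region over its start ended 14 bases short of that array. It was 69 bases wide, near the smallest width of 67 bases among all 57124 regions. Its edge therefore does not show that the array lies in closed chromatin.

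A region had its centre between 1000 bases before and 100 bases after a start (the promoter window) for 22 of 31 members, against 48.6% of 21938 protein-coding genes. Counting any region that lay over a start gave 26 of 31 members, against 56.4%. For 29 of 31 members a region overlapped the gene body or its flanks, against 74.7%, and the exceptions were Ifit3 and Oas2. The members that lacked a region over a start were Ifit3, Oas2, Oasl2, Sp100 and Sp110, which are 3 effectors and both Speckled-protein genes. Genes were not treated as replicates and no test was made of these shares.

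**Figure D1:**
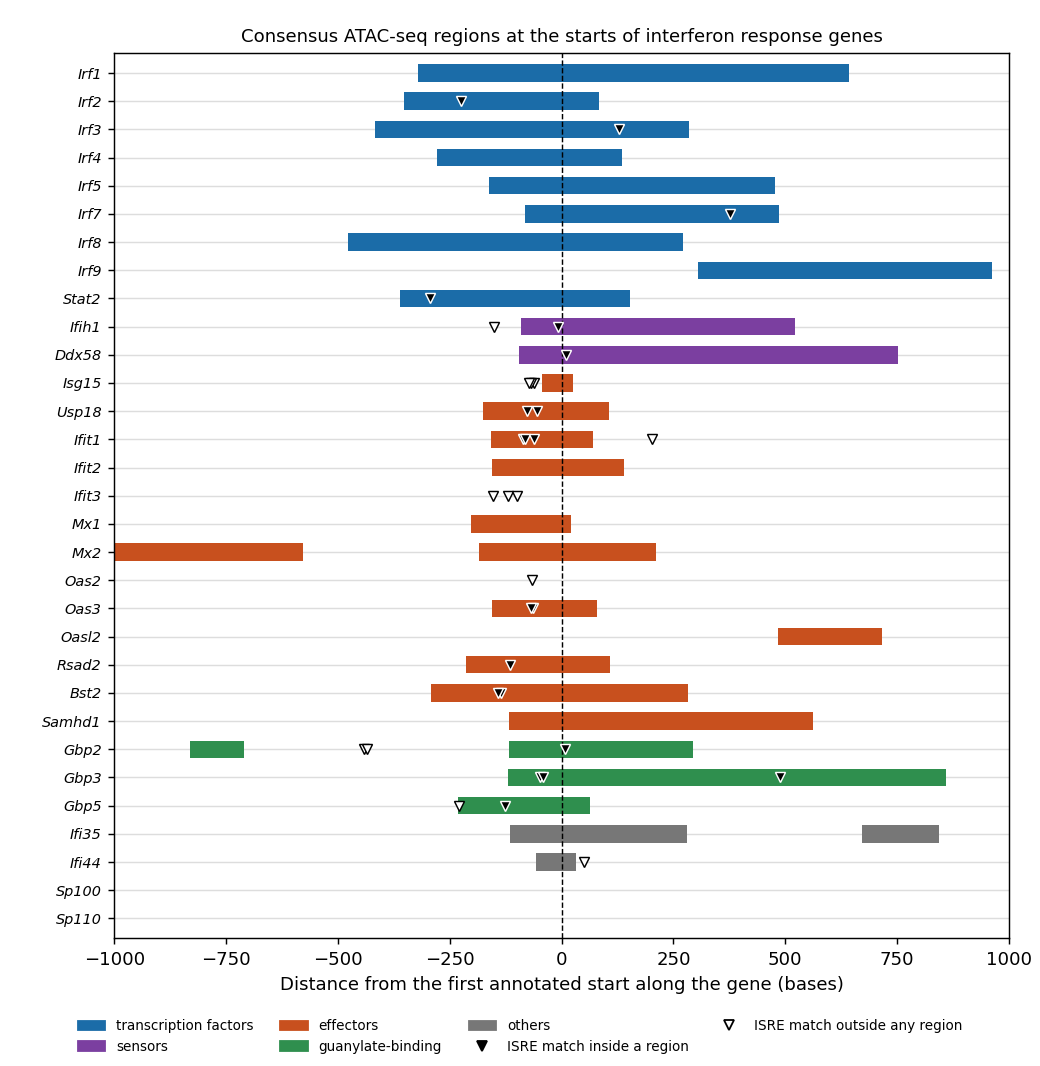
Consensus regions within 1000 bases of the first annotated start of each of the 31 members, drawn as bars coloured by role, with triangles for ISRE matches within 500 bases of the start (filled inside a region, open outside). Bars cover the start line in most rows, no bar is drawn for Ifit3, Oas2, Sp100 and Sp110, and the effectors gather their triangles just upstream of the start.

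All 9 transcription factors had a region over a start, with a median width of 640 bases (range 415 to 962). Irf1, which drives interferon gamma responses and basal antiviral genes, had the widest at 962 bases (chr11:53769694-53770655). Irf8 followed at 749 bases (chr8:120735881-120736629), and Irf4 had the narrowest at 415 bases (chr13:30748947-30749361), both being factors best known from lymphoid and myeloid cells. The widths by role are those of the widest region per gene. Counting every region centred in the promoter window instead, the 26 member regions had a median of 396 bases (quartiles 230 and 590). Counted in that way, promoter regions of protein-coding genes had a median of 509 bases with quartiles of 324 and 722. Irf1 was wider than 90.5% of these protein-coding promoter regions and Irf4 wider than 36.5%.

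Irf3, the latent factor activated by viral sensing, had a 702-base region (chr7:44997230-44997931) that also contained the start of Bcl2l12. The region of Irf2, an antagonist of Irf1, measured 435 bases (chr8:46739380-46739814) and contained the start of the noncoding gene Gm16675. In neither case can the region be given to one of the neighbouring starts. Irf5, which acts downstream of Toll-like receptors, had 640 bases (chr6:29526462-29527101). Irf7, the amplifier of type I interferon production, had 567 bases (chr7:141265996-141266562) with the centre 142 bases downstream of the nearest start, just outside the promoter window.

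Stat2 and Irf9, which act together in the type I response, had regions of 514 bases (chr10:128270214-128270727) and 659 bases (chr14:55603875-55604533). The Irf9 region lay over a later annotated start and left the first start uncovered.

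Both RNA sensors, Ifih1 (MDA5) and Ddx58 (RIG-I), had wide regions that reached into the gene. The region of Ifih1 measured 612 bases (chr2:62645691-62646302) with its centre 157 bases downstream of the nearest start. The region of Ddx58 measured 847 bases (chr4:40239077-40239923) with its centre 328 bases downstream. Both lay over the start but missed the promoter window by their centres, as did the 680-base region of the nucleotide hydrolase Samhd1 (chr2:157134704-157135383), centred 163 bases downstream.

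Regions at the 13 effectors were narrower. Of these genes 10 had a region over a start, and the widest region per gene had a median of 289 bases (range 69 to 680). The antiviral RNA-binding proteins Ifit1 and Ifit2 had 229 bases (chr19:34640713-34640941) and 296 bases (chr19:34550554-34550849). That of Ifit1 also held a start of Ifit1bl2. Oas3, an oligoadenylate synthetase that activates RNase L, had 234 bases (chr5:120777583-120777816).

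Usp18, which removes ISG15 from proteins and damps receptor signalling, had 282 bases (chr6:121245730-121246011). The radical SAM enzyme viperin, encoded by Rsad2, had 323 bases (chr12:26456344-26456666). The myxovirus GTPase gene Mx1 had 222 bases (chr16:97462887-97463108). Mx2, annotated as a polymorphic pseudogene, had a 395-base region over its start (chr16:97535897-97536291) and a wider one of 596 bases centred at -877 (chr16:97534907-97535502). Bst2 (tetherin), which holds budding virions at the membrane, had 573 bases (chr8:71537175-71537747). The narrowest belonged to Isg15 at 69 bases (chr4:156200793-156200861), a width undercut by 0.0562% of the promoter regions of protein-coding genes.

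**Figure D2:**
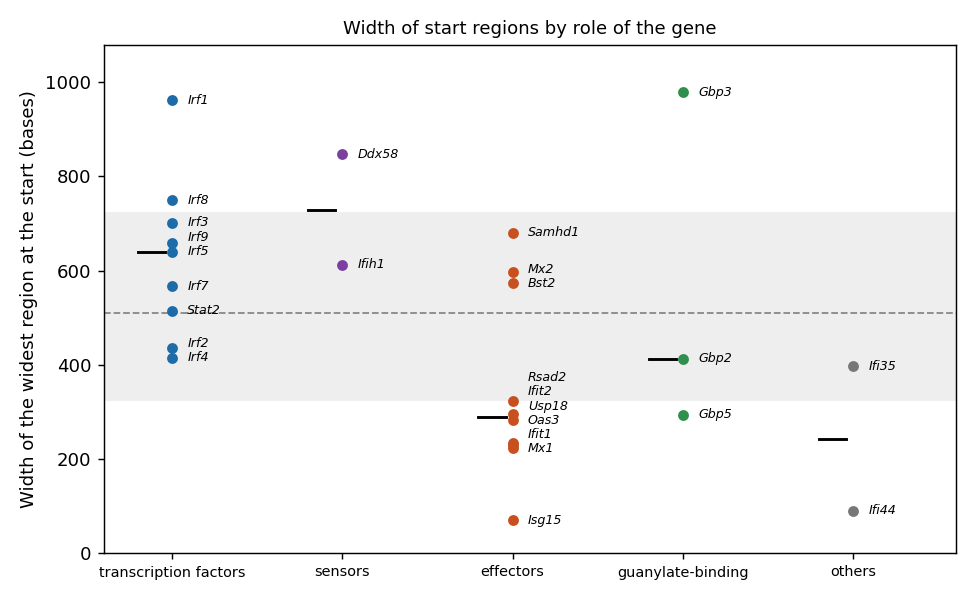
Width in bases of the widest consensus region at the start of each of 26 members, by role, with short bars for the median of each role, a dashed line for the median of all protein-coding promoter regions (509 bases) and shading between their quartiles (324 and 722). The transcription factors spread around 640 bases and most effectors lie below the shading.

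The 3 guanylate-binding genes, whose GTPases attack pathogen vacuoles, all had a region over a start, but with very different widths. Gbp3 had 979 bases (chr3:142559932-142560910), Gbp2 had 412 bases (chr3:142620484-142620895) and Gbp5 had 294 bases (chr3:142496669-142496962). Gbp3 therefore exceeded 91.4% of protein-coding promoter regions and Gbp5 exceeded 22%. Among the remaining genes, Ifi35 had 397 bases (chr11:101448291-101448687) and Ifi44 had 89 bases (chr3:151749929-151750017).

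Sp100 and Sp110, chromatin readers of nuclear bodies, had regions within their bodies but none at a start. The sole region of Sp100 was intronic and 764 bases wide (chr1:85703352-85704115). Sp110 had 6 regions, among them an exonic one of 2164 bases (chr1:85591221-85593384), the widest of all 79. The 719-base region upstream of Sp110 (chr1:85600548-85601266) lay over the start of Sp140. Oasl2 had a 233-base region in an exon, centred 600 bases downstream of the start (chr5:114897420-114897652), with 2 ISRE matches. For Ifit3 the nearest region edge lay 13566 bases away and for Oas2 it lay 27730 bases away.

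Reads that aligned to several places had been discarded, so the uniqueness of these starts was measured as the share of 100-base words within 500 bases of the start that occur once in the genome. The share was 73.2% for Ifit3, 63.4% for Sp100 and 50.4% for Sp110, compared with 97% for Mx1 and Mx2 and 100% for the other 26 members. Among these 26 were Oas2 and Oasl2, which also had no region over the start. The part of repeated sequence in the missing regions was not tested.

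Most regions given to the members lay away from the start and were narrow, as in the whole region set. At the starts lay 30 regions with a median of 413.5 bases (quartiles 246 and 633), and away from them lay 49 with a median of 149 bases (quartiles 105 and 223). Of all 79 regions, 25 were intronic, 6 exonic, 8 in the upstream flank and 10 in the downstream flank. Across the whole region set, 44015 of 57124 regions lay away from protein-coding promoters and starts, with a median of 168 bases. That set is not limited to gene bodies and flanks. The members had a median of 2 regions per gene, and 4 of them had 5 or more, namely Irf2, Sp110, Usp18 and Ifi35. That is 12.9% of the members and 11.1% of protein-coding genes, at median gene lengths of 17751 and 17425 bases.

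Irf2 held 13 regions, more than any other member, in a gene of 107727 bases. Of these, 10 were intronic and between 70 and 596 bases wide. For 52 of the 79 regions the member's start was the nearest of any annotated gene. This held for 28 of 30 regions at starts but for 24 of 49 regions away from them. In the flanks it held for 4 of 8 upstream and 3 of 10 downstream regions, and the others lay nearer to the start of another gene. Isg15 was flanked by 2 regions of that kind, of 842 bases at the start of Agrn and of 523 bases at the start of AW011738.

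**Figure D3:**
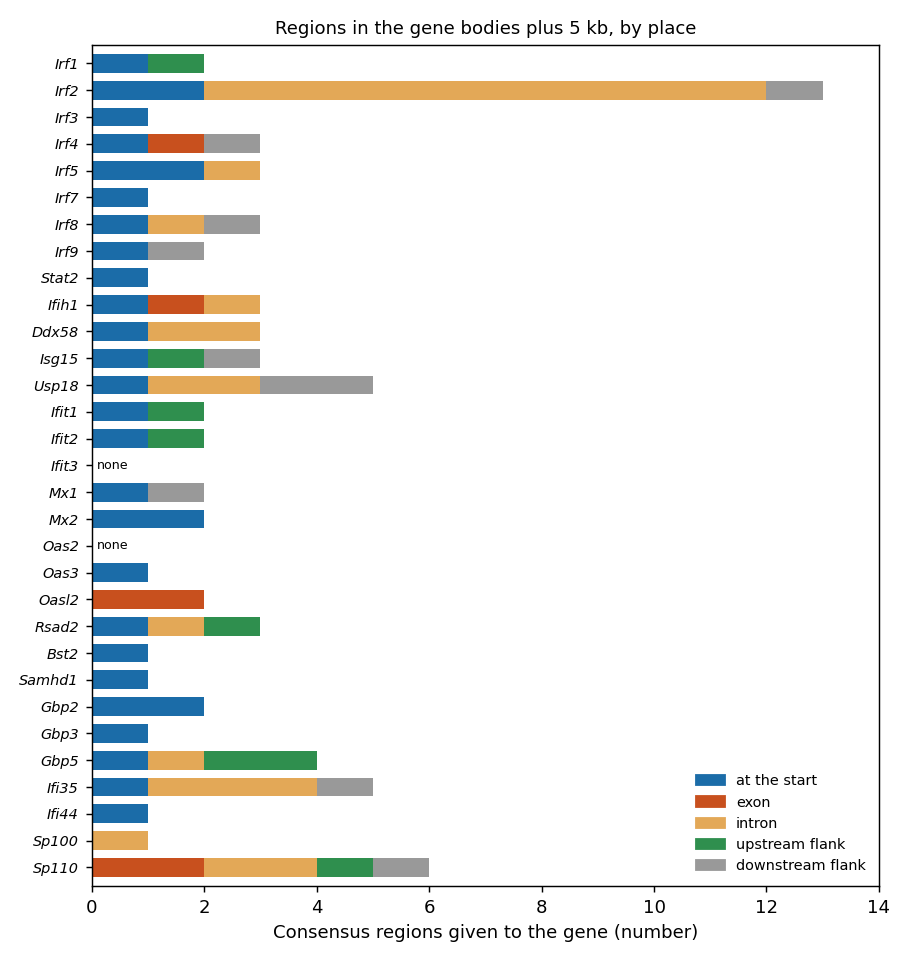
Number of consensus regions given to each of the 31 members, stacked by place (at the start, exon, intron, upstream flank, downstream flank). Irf2 stands out with 13 regions of which 10 are intronic, and Ifit3 and Oas2 have none.

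The width of a start region went with the CpG content of the start. The CpG ratio compares the observed number of CpG dinucleotides within 500 bases of the start with the number its C and G content predicts, and high values mark CpG islands. The median ratio was 0.709 for the transcription factors, 0.526 for the sensors, 0.237 for the effectors and 0.191 for the guanylate-binding genes. Over all protein-coding genes it was 0.571. Across the 26 members with a region at the start, Spearman's rho between ratio and width was 0.508 and Pearson's r was 0.477, given as a description over genes of one merged region set.

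Among members with a ratio of at least 0.5, 10 of 10 had a region over a start. Among those below 0.5 it was 16 of 21, or 76.2%, while 18% of the 9845 protein-coding genes below 0.5 and 87.6% of the 12093 at or above it had one. The members with CpG-poor starts and a covered start included Mx1 at 0.057, Gbp2 at 0.11 and Ifit1 at 0.116. Gbp3 departed from the trend with a ratio of 0.191 and the widest region of all members' starts, and Usp18 departed in the other direction with 0.609 and 282 bases.

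**Figure D4:**
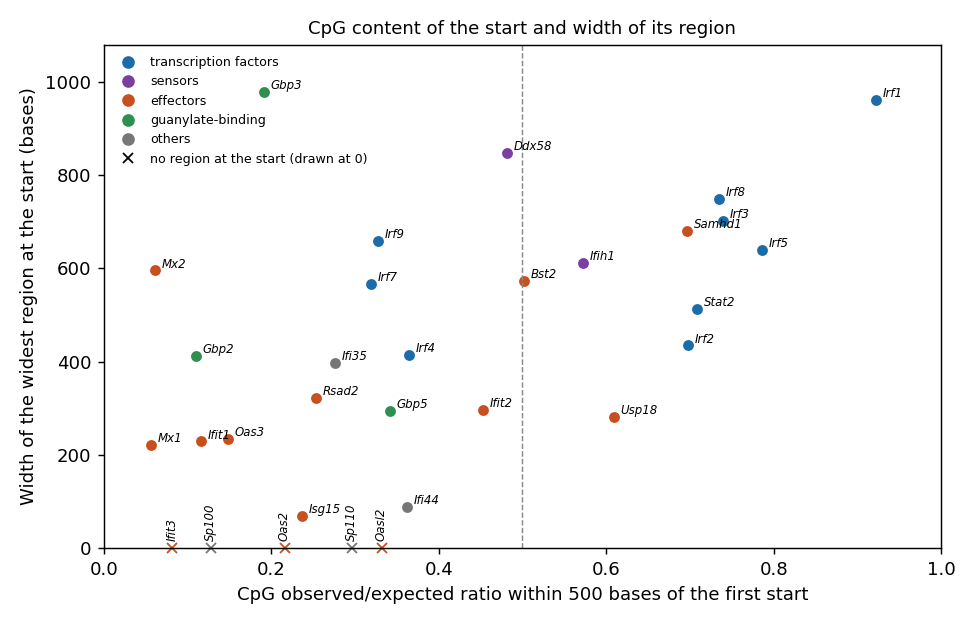
CpG observed/expected ratio within 500 bases of the first start (horizontal) and width in bases of the widest region at the start (vertical) for the 31 members, coloured by role, with crosses at 0 for the 5 members without a region. Points rise from left to right with Spearman's rho of 0.508 over the 26 members with a region, all 5 crosses lie below the dashed line at 0.5, and Gbp3 sits high on the left.

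To see which regulatory letters the accessible starts held, 4 short motifs were searched on both strands. These were the ISRE (GAAANNGAA), the GAS (TTCNNNGAA), an ETS core (CCGGAAG) and a Krüppel-like factor core (GGGNGTGG), the last 2 because ETS and KLF proteins are factors the study follows in mTECs. An ISRE match was present in 12 of 26 member promoter regions, or 46.2%, against 8.59% of 10681 promoter regions of protein-coding genes. GAS matches were present in 7 of 26, or 26.9%, against 8.63%. ETS matches were present in 1 of 26, or 3.85%, against 22.6%, and KLF matches in 10 of 26, or 38.5%, against 34.4%. The ETS core itself contains a CpG. The median CpG ratio was 0.332 for the 31 members and 0.571 for all protein-coding genes. For protein-coding genes with a region over a start it was 0.741, while the 31 members include some without such a region. The part of CpG content in the ETS share was not tested. A match is a statement on letters and not on binding.

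**Figure D5:**
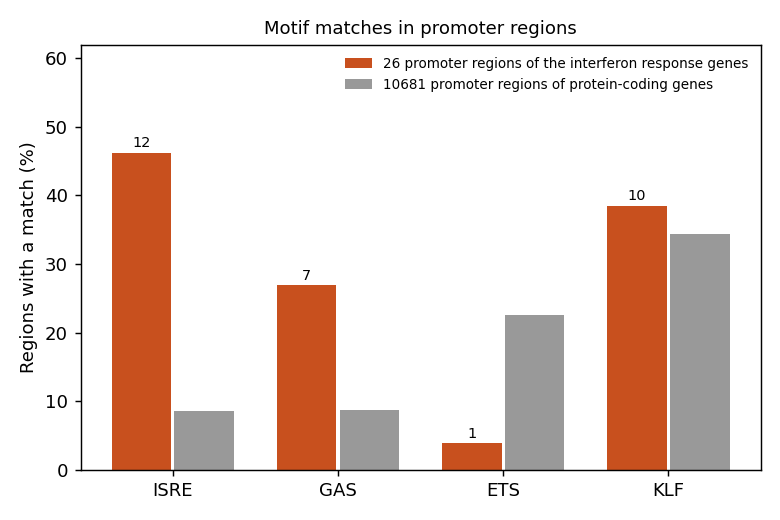
Percentage of promoter regions with at least 1 match to each motif, for the 26 promoter regions of the interferon response genes and the 10681 of protein-coding genes, with the number of member regions above each bar. The ISRE bars stand at 46.2% and 8.59%, the ETS bars at 3.85% and 22.6%, and the KLF bars at 38.5% and 34.4%.

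Per kilobase, the 30 member regions at starts held 1.63 ISRE matches against 0.177 in all protein-coding promoter regions, and 0.742 GAS matches against 0.173. ETS matches were at 0.148 against 0.535 per kilobase and KLF matches at 1.04 against 0.916. By width class, an ISRE match was present in 0 of 5 member regions under 200 bases, 5 of 9 from 200 to 400 bases, 6 of 7 from 400 to 600 bases and 4 of 9 at 600 bases or more. The shares over all protein-coding promoter regions in these classes were 2.75%, 6.39%, 8.02% and 12.2%. The sets differ in definition, both per kilobase and by width class. The 30 member regions include 4 that lay over a start with the centre outside the promoter window, 3 of them with an ISRE match. The protein-coding set holds only regions centred in that window. Away from the members' starts, 8 of 49 member regions held an ISRE match. Among the 8 are the regions over the starts of the neighbouring genes AW011738, Sp140 and Gm44148. Over all 57124 regions, promoter regions included, the share was 6.9%. A share for regions away from starts alone was not computed.

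The position of the ISRE letters differed by role. Within 500 bases of the first start, 18 of 31 members had a match, against 24.8% of protein-coding genes, and 21 of the 34 matches lay inside a region. From 200 bases upstream to the start, 11 members had a match, against 5.48% of protein-coding genes. Of these 11, 8 were effectors (Isg15, Usp18, Ifit1, Ifit3, Oas2, Oas3, Rsad2 and Bst2), and the others were Gbp3, Gbp5 and Ifih1. In the transcription factors the matches lay elsewhere, at -224 in Irf2, -295 in Stat2, 128 in Irf3 and 377 in Irf7, each inside the start region.

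Ddx58 had its match just inside the gene, at 10. Gbp2 had 1 inside its region, at 7, and 2 upstream of it outside any region, at -442 and -436. Ifih1 had 1 at -8 inside its region and 1 at -152 outside. In Ifi44 the match at 51 fell beyond the 89-base region. Mx1 and Ifit2, both well-known interferon targets, had no match to these letters within 500 bases of the first start although a region lay over it. Rsad2 had a match in each of its 3 regions, in the promoter, in an intron (chr12:26454764-26454951) and in the upstream flank (chr12:26460235-26460373). RefSeq promoter windows frame a start closely and do not depend on the regions. Of the 27 members listed there, 14 had a match in at least 1 of their windows (51.9%). Counted window by window and not by gene, 8.56% of all 32851 windows had a match, so these shares differ in unit.

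GAS letters were found in the start regions of Irf1, Irf2, Irf8, Irf9, Bst2, Samhd1, Gbp5 and Ifi35. Those of Irf1 (chr11:53769884-53769972, plus strand) and Irf8 (chr8:120736165-120736253, plus strand) are shown because interferon gamma is the textbook inducer of both, with matches to TTCNNNGAA in capitals.
Irf1: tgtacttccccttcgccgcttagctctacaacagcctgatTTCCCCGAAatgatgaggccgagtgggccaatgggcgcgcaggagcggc
Irf8: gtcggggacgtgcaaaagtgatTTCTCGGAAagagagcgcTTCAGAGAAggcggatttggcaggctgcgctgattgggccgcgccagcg
The match of Irf1 lay at -86 and those of Irf8 at -167 and -149. Neither of these regions held an ISRE match, while Usp18, Ifit1, Oas3 and Rsad2 held ISRE but no GAS matches in theirs. Gbp5 held 2 GAS matches at -207 and -14 beside its ISRE match at -126. Irf2 and Bst2 also held both motifs in their start regions. In Irf2 the GAS match lay at -207 and the ISRE match at -224. In Bst2 the GAS match lay at -148 and the ISRE matches at -136 and -142.

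Upstream of the members in the pathway, 7 of 10 interferon genes had no region anywhere in the gene or its flanks, namely Ifnb1, Ifna1, Ifna2, Ifna4, Ifna5, Ifne and Ifng. Of protein-coding genes, 74.7% had a region there, at a median gene length of 17425 bases. The searched stretch grows with gene length, and the lengths of the interferon genes were not compared. The uniqueness of sequence at the interferon genes was not measured, and reads that aligned to several places had been discarded. Narrow regions of 143 and 73 bases were centred in the promoter windows of Ifnl2 and Ifnl3, the type III interferons, without lying over a start. Of receptor and kinase genes, 9 of 9 had a region over a start, with a median of 708 bases. The share over protein-coding genes was 56.4%. CpG ratios ran from 0.576 to 0.897 at these 9 starts and from 0.0589 to 0.364 at the 10 interferon genes. Of protein-coding genes, 87.6% with a ratio of at least 0.5 and 18% of those below it had a region over a start. The part of CpG content in this difference was not tested. The receptor and kinase regions included Ifnar1 at 671, Ifngr1 at 714, Ifnlr1 at 454 and Jak2 at 965 bases. Of 12 signalling genes 11 had a region over a start, the widest being those of the feedback inhibitors Socs3 at 1313 and Socs1 at 1259 bases.

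Among 38 further interferon targets, 30 had a region over a start, against 56.4% of protein-coding genes. The widest region per gene, taken over the targets with a region either centred in the promoter window or lying over a start, had a median of 370.5 bases. ISRE letters stood within 500 bases of the first start in 33 of the 38, against 24.8% of protein-coding genes. As in the effectors, the regions of the oligoadenylate synthetase genes were narrow, at 211 bases for Oas1a, 160 for Oas1g and 156 for Oasl1. Ifit3b, the close copy of Ifit3, had a 301-base region centred in its promoter window that did not lie over the start.

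The labelled cell type was checked on marker genes. A region over a start was present for 6 of 7 thymic epithelial genes, Epcam, Krt5, Krt8, Foxn1, Aire and Cd80, but not for Ccl21a. None was present at the starts of the thymocyte genes Cd3e, Cd4, Cd8a and Rag1. Of 5 genes of dendritic cells and macrophages, Flt3 had one (322 bases). The share over protein-coding genes was 56.4%, and 18% among those with a CpG ratio below 0.5. The ratio was 0.18 to 0.466 at the epithelial starts, 0.257 to 0.357 at the thymocyte starts and 0.719 at Flt3. At the other dendritic cell and macrophage starts it was 0.115 to 0.322. The part of CpG content in these counts was not tested. Because the regions were merged over the samples, a region can stem from any group. A missing region means that no called peak lay there, which by itself does not show closed chromatin.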

How the data were processed

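ATAC-seq was performed on 8 samples of sorted mTECs, 2 replicates in each of 4 groups. The authors used Bowtie2 for alignment to mm10, SAMtools for filtering, Picard for duplicate removal, MACS2 for broad peak calling and bedtools for merging the peaks. Per the file headers, featureCounts 2.0.3 was used for counting. It is not given in the sources used here if samples were pooled for peak calling. The deposited values used were the start, end and width of each merged region in bases. The 8 count columns match no sample label and were not used, so the planned comparison of groups was not run and depth is not analysed here.

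Regions were matched to GENCODE M21 (basic set), and 0 regions ran past the end of a GRCm38 chromosome. All 31 members are named, by role. Members, gene lists and motifs were chosen with earlier results of these data known. Promoter sequences were also taken from RefSeq, where Mx1, Mx2, Oas2 and Usp18 had no entry. The functions were tested on simulated data. Alternatives concerned the promoter window, annotation, flank, assignment, width and motif, and 3 of 18 were added after seeing the data. Python 3.11.15, numpy 2.4.6, numba 0.67.0 and matplotlib 3.10.9 were used.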

Additional observations from a re-analysis of the deposited data

How the results depend on the processing

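Of 18 alternatives to 4 results, 15 stayed within 1.5-fold of the reported value. The number of members with a promoter region was 22 and ranged from 20, with regions of at least 200 bases, to 27, with any overlap within 500 bases of a start. The backgrounds moved as well, to 44.4% and 61.7% of protein-coding genes. The median width of the members' promoter regions was 396 bases and ranged from 296, with the comprehensive annotation, to 415. The 79 regions of the members became 52 when the nearest start among all genes had to be the member's, and 39 when regions under 200 bases were left out. Both settings keep fewer regions by construction. ISRE matches were counted in 12 promoter regions, in 11 with a further A required at the end of the motif, in 14 with 100 bases added on either side, and in 23 when every region given to a member was searched. The 14 include Isg15 and Ifi44, whose letters lie just beyond their regions. No paired analysis was possible because no count column could be tied to a sample, and the fits with other tools, filters, a replicate block or a sample left out were not run. Region widths depend on peak calling and merging, and the depth behind them is not analysed here.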

Other observations

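Genes of the MHC class I pathway, which interferon raises in most cells, were among the further targets with a region over a start. B2m, the light chain of MHC class I, had 511 bases (chr2:122147436-122147946), and Nlrc5, the transactivator of these genes, had 644 bases (chr8:94433904-94434547). Tap1, a peptide transporter subunit, and Psmb9, an immunoproteasome subunit, shared a region of 661 bases (chr17:34187250-34187910), while Psmb8 had its own of 394 bases (chr17:34197445-34197838). The chemokine genes Cxcl9 and Cxcl10, whose products attract T cells, had 449 and 351 bases. Cxcl11, annotated as a polymorphic pseudogene, had 267 bases. The targets without a region centred at a promoter or over a start were Ifit1bl1, Ifitm1, Parp14 and Dhx58.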
